A study of Homo sapiens with 2 samples.

Results

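Replacement histone variants are histones that a cell can place in its chromatin outside the S phase of the cell cycle. The 9 genes described here were matched by current or older symbol to the Ensembl identifiers of the tables, and all 9 of the 57736 listed genes were found. They encode H2A.Z (H2AZ1 and H2AZ2), H3.3 (H3-3A and H3-3B), macroH2A (MACROH2A1 and MACROH2A2), H2A.X (H2AX), the linker histone H1.10 (H1-10) and the centromeric histone CENP-A (CENPA). RNA was measured by RNA-Seq in HEK293T cells, which derive from human embryonic kidney, express the large T antigen of SV40 and are labelled as wild type. By the labels, the cells were held for 20 min at 43 °C and then for 6 h at 37 °C before lysis. The paper that reported this heat shock gives a longer time at 43 °C. Both libraries, replicate 1 and replicate 2, belong to this 1 heat-shock group, and each came from separately lysed cells of the line. Untreated cells are not analysed here, so the values below are levels after recovery and differences between 2 libraries, and no change with heat shock was measured. Poly(A)+ RNA was selected, and the reads were 50 bases long.

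The libraries held 22529828 and 26890199 expected counts, which are read counts with multi-mapped reads shared among genes by the authors' quantifier. Levels are given in TPM, a unit of transcript abundance scaled to the same total in each library, which is corrected for transcript length and can be compared between genes. Genes that reached 1 TPM in each of the libraries were called detected, which held for 15188 of them. Of 9 markers of HEK293 cells chosen for this purpose, 7 were matched, and all 7 were detected, among them VIM, encoding vimentin, at 647 ± 51.6 TPM (SD, n = 2). Of 13 matched markers of blood, fibroblast, endothelial and liver cells, 1 was detected, the collagen gene COL1A1 at 22.5 ± 2.22 TPM (SD, n = 2). The summed TPM of these lists was 0.39 and 0.18 for blood, 24.7 and 22.9 for fibroblasts, 0.01 and 0.03 for endothelium, and 0.47 and 0.87 for hepatocytes in replicates 1 and 2, and the part of such cells in the results was not tested.

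Most histone genes are transcribed in S phase only, lie in clusters, lack introns, and yield mRNA that ends in a conserved stem-loop in place of a poly(A) tail. The replacement variants are in general transcribed throughout the cycle into polyadenylated mRNA. H2A.Z sits beside transcription start sites, H3.3 marks transcribed genes and also telomeres and pericentric repeats, H2A.X is phosphorylated around DNA breaks, macroH2A is known from the inactive X chromosome and other silent chromatin, and CENP-A marks the centromere.

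The H3.3 genes encode the same protein, the H2A.Z genes nearly the same protein, and the macroH2A genes related but less similar proteins. The coding sequences show how far reads could tell the genes of a pair apart. The first coding bases of both H3.3 genes and of the processed pseudogene H3P6 are shown because the level of H3-3A turns on them, and those of the H2A.Z genes because they give the contrasting case. Capitals mark the bases that differ within a pair.
H3-3A: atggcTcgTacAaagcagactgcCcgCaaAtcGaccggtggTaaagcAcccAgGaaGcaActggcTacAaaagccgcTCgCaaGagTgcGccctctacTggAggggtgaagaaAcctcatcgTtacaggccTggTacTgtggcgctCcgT
H3-3B: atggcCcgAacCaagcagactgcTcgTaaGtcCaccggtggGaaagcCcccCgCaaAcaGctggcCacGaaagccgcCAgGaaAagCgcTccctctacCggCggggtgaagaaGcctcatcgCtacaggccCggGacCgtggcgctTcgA
H3P6: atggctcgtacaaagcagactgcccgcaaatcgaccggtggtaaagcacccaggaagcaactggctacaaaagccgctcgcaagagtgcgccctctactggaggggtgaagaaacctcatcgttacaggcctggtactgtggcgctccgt
H2AZ1: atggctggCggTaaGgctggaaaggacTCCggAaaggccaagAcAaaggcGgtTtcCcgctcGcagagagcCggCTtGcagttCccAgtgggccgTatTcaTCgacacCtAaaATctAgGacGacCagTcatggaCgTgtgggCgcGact
H2AZ2: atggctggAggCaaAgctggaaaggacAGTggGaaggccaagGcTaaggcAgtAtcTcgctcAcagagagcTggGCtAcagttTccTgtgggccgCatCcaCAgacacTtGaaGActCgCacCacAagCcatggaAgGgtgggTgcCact
Each run covers coding bases 1 to 150, read on the coding strand of the reference transcript, and the H3P6 run was read from chr2:175584636-175584785 of GRCh37, plus strand. The H3.3 genes differed at 30 of these 150 bases and at 88 of all 408, with 0 differences among the 136 encoded residues. Their longest shared run was 14 bases, far shorter than a read. The H2A.Z genes differed at 75 of 384 bases and at 3 of 128 residues, with a longest shared run of 23 bases. MACROH2A1 and MACROH2A2 differed at 362 of 1116 bases and at 120 of 372 residues, and their longest shared run was 17 bases. A read of 50 bases from the coding part of any of these genes therefore could not match its partner in full.

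The exception lay outside the 9 genes. H3P6 (ENSG00000235655), an intronless copy on chromosome 2 annotated as a processed pseudogene at chr2:175584636-175585046 (GRCh37, plus strand), carried 0 differences from the 411 coding and stop bases of H3-3A. Bases 12 to 1053 of the 1070-base H3-3A transcript aligned to the locus with 1041 matches, 0 mismatches and 1 gap. Of 1021 sequences of 50 bases in the H3-3A transcript, 959 (93.9%) stood at the locus and 62 did not, and 0 stood in the H3-3B transcript. Reads of H3-3A and of H3P6 can thus be told apart over a small part of the transcript only, and the level of H3-3A below is uncertain for this reason. The posterior SD deposited for the H3-3A count was 7.83% of the count in replicate 1 and 7.60% in replicate 2, against at most 0.203% for any other of the 9 genes.

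**Figure D1:**
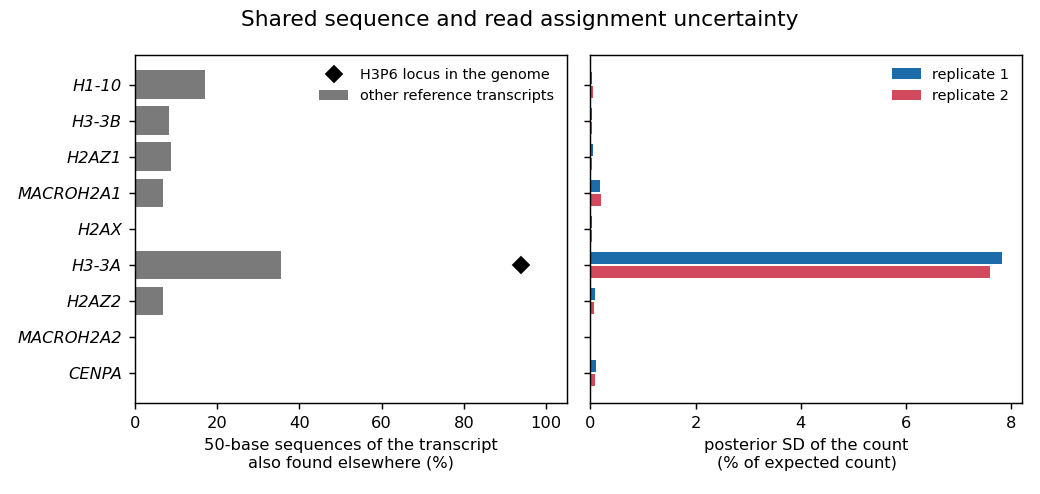
Left, share of each gene's 50-base sequences that also stand in other reference transcripts (bars, %), with the share of the H3-3A sequences found at the H3P6 locus in the genome (diamond). Right, posterior SD of the count as a percentage of the expected count in each of the 2 libraries. H3-3A stands apart in both, with 93.9% at the locus and posterior SDs of 7.83% and 7.60%.

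All 9 genes were detected. Their TPM summed to 1523 in replicate 1 and 1419 in replicate 2, a mean of 1471 ± 73.8 (SD, n = 2), or 0.147% of all transcripts. The highest, H1-10, was 12.9 times as abundant as the lowest, CENPA. In order of mean TPM they were H1-10, H3-3B, H2AZ1, MACROH2A1, H2AX, H3-3A, H2AZ2, MACROH2A2 and CENPA. Of the 8 neighbouring pairs in this order, 6 had values that did not overlap between the genes over the 2 libraries. The other 2, H1-10 with H3-3B and H3-3A with H2AZ2, overlapped and could not be ranked. The deposited TPM bounds overlapped for further pairs in replicate 1, though not in replicate 2. These were H2AZ1 (237 to 259) with MACROH2A1 (230 to 249) and H2AZ2 (61.3 to 69.8) with MACROH2A2 (61.2 to 66.7). The place of H3-3A depends on the reads shared with H3P6, since together they were at 419 TPM, above H1-10.

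**Figure D2:**
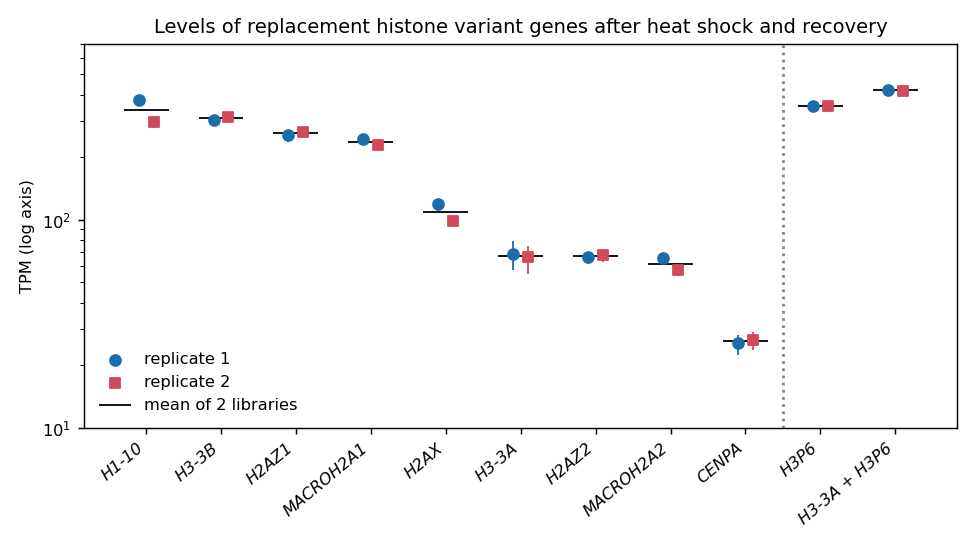
TPM on a log axis of each variant gene in the 2 libraries, with the mean (line), and, right of the dotted line, of the pseudogene H3P6 and of H3-3A with H3P6. Thin vertical lines are the deposited TPM bounds, which belong to the posterior mean and need not centre on the TPM. The levels fall from 336 TPM for H1-10 to 26.1 TPM for CENPA, and the sum of H3-3A and H3P6 lies at 419 TPM.

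The H3.3 genes come first by role. H3-3B (ENSG00000132475, chr17:73772515-73781974, minus strand, 4 exons in the canonical transcript) was at 302 TPM in replicate 1 and 313 TPM in replicate 2, a mean of 307 ± 8.16 (SD, n = 2). H3-3A (ENSG00000163041, chr1:226249552-226259720, plus strand, 4 exons) was listed at 68.6 and 65.9 TPM, a mean of 67.3 ± 1.91 (SD, n = 2). The ranges did not overlap, and H3-3B exceeded H3-3A 4.39-fold in replicate 1 and 4.75-fold in replicate 2, a mean of 4.57 ± 0.25. H3P6 was listed at 353 and 352 TPM, a mean of 352 ± 0.827 (SD, n = 2), with 6265 and 7107 expected counts against 1308 and 1450 for H3-3A. H3-3A thus held 17.3% and 16.9% of the counts assigned to this pair of sequences. When both were counted together, an alternative chosen after seeing the data, the sum was 421 and 417 TPM, a mean of 419 ± 2.74, and the order of the H3.3 genes turned over: H3-3B was then at 0.716 and 0.750 of it, a mean of 0.733 ± 0.0242. How many of these reads came from H3-3A and how many from H3P6 cannot be told apart here.

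H3-3B shared 8.28% of its 50-base sequences with H3-5, another H3.3-like gene, which received 0 and 1.22 counts. H3P16, a pseudogene that shared 28.0% of the sequences of H3-3A, received 0 counts in both libraries. The gene UNK overlaps H3-3B on the opposite strand over 179 exonic bases and was at 65.0 and 66.4 TPM. Whether strand was used in counting is not stated in these sources, so reads from that overlap are uncertain.

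The H2A.Z genes differed in level as well. H2AZ1 (ENSG00000164032, chr4:100869243-100871512, minus strand, 5 exons) was at 256 and 265 TPM, a mean of 261 ± 6.63 (SD, n = 2). H2AZ2 (ENSG00000105968, chr7:44866390-44887686, minus strand, 5 exons) was at 66.6 and 67.5 TPM, a mean of 67.0 ± 0.594 (SD, n = 2). H2AZ1 was the higher gene in both libraries, 3.84-fold and 3.93-fold, a mean of 3.89 ± 0.0644. In reads the genes were closer, with a count ratio of 1.36 ± 0.0802, and the length assigned to H2AZ2 was 1741 and 1908 bases against 673 and 665 for H2AZ1. H2AZ2 also shared 6.89% of its 50-base sequences with 43 other genes, yet its posterior SD was 0.0895% and 0.0726% of the count.

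Of the other H2A variants, MACROH2A1 (ENSG00000113648, chr5:134670071-134735604, minus strand, 9 exons) was at 244 and 228 TPM, a mean of 236 ± 11.5 (SD, n = 2). MACROH2A2 (ENSG00000099284, chr10:71812300-71872038, plus strand, 9 exons) was at 65.5 and 57.4 TPM, a mean of 61.5 ± 5.73 (SD, n = 2). Their ranges lay apart, with MACROH2A1 3.73-fold and 3.97-fold higher, a mean of 3.85 ± 0.171. Per read and not per length, the ratio was 2.496 ± 0.217. The antisense gene PITX1-AS1, at 6.99 and 9.08 TPM, overlaps 27.7% of the exonic bases of MACROH2A1. H2AX (ENSG00000188486, chr11:118964584-118966175, minus strand, 1 exon) was at 118 and 99.0 TPM, a mean of 109 ± 13.8 (SD, n = 2). It lay between the groups formed by the higher and lower member of each pair, and no value of another of the 9 genes fell within its range.

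H1-10 (ENSG00000184897, chr3:129033614-129035129, minus strand, 1 exon) was at 377 TPM in replicate 1 and 296 TPM in replicate 2, a mean of 336 ± 56.9 (SD, n = 2). This was the widest spread of the 9 genes. The antisense gene H1-10-AS1 overlaps 22.8% of its exonic bases and was at 2.98 and 3.73 TPM. CENPA (ENSG00000115163, chr2:26987157-27023935, plus strand, 5 exons) was at 25.7 and 26.5 TPM, a mean of 26.1 ± 0.573 (SD, n = 2). It rests on 418 and 521 counts, the fewest of the 9 genes, for which counting error alone is 4.89% and 4.38%. The gene SLC35F6 shares 138 exonic bases with CENPA on the same strand and was at 27.6 and 26.1 TPM.

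Summed by protein, the levels of H3.3 without H3P6, H1.10, H2A.Z and macroH2A lay between 285 and 379 TPM in both libraries, and H3.3 with H3P6 lay far above that range. H3.3 RNA from both genes summed to 370 and 379 TPM, a mean of 375 ± 6.25 (SD, n = 2), and to 727 ± 5.42 with H3P6. H2A.Z RNA summed to 322 and 333 TPM, a mean of 328 ± 7.22, and macroH2A RNA to 310 and 285 TPM, a mean of 297 ± 17.2. The ranges of H3.3, H2A.Z and macroH2A did not overlap, whereas that of H1.10 spanned H2A.Z and overlapped H3.3 and macroH2A. Relative to CENP-A, H3.3 RNA was 14.3 ± 0.0753 times as abundant, or 27.8 ± 0.403 times with H3P6, H2A.Z RNA 12.5 ± 0.00135 times and H2A.X RNA 4.17 ± 0.619 times (SD, n = 2). The SD of 2 ratios can fall below the counting error of CENPA, 4.89% and 4.38%, which applies to each of these ratios.

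By one measure of likeness, the distance between genes in the log2(TPM + 1) values of the 2 libraries, the protein-coding genes nearest to H1-10 among 19391 were MCM7, a subunit of the replicative helicase, and RPS14, a protein of the small ribosomal subunit. Those nearest to H3-3B were ACIN1 and USP10, and those nearest to H2AZ1 were NOP56 and KPNB1. With 2 libraries of 1 group, this likeness says only that the levels were near each other.

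The share of the variants in each histone family was then measured against the replication-dependent genes. Of 65 such genes in the annotation, 34 were matched by gene identifier and 7 more through transcript identifiers, and the others are not analysed here. Of the 34, 18 were detected, and they summed to 237 and 211 TPM, a mean of 224 ± 18.2 (SD, n = 2). The highest were H2BC12 at 69.6 ± 5.70 TPM, H4C3 at 48.4 ± 13.1 TPM and H2BC18 at 18.3 ± 0.79 TPM.

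In the H3 family, H3-3A, H3-3B and CENPA made up 99.4% and 99.1% of the summed TPM, a mean of 99.3% ± 0.191 (SD, n = 2), and the 5 matched replication-dependent genes 0.639% ± 0.126. None of those 5 was detected. With histone pseudogenes included, H3P6 among them, the share of the variants was 52.9% ± 0.468. In the H2A family the 5 variant genes made up 95.7% and 96.1%, a mean of 95.9% ± 0.284, and 8 replication-dependent genes 2.83% ± 0.0475. H2AJ, another H2A variant, was detected at 9.90 ± 2.42 TPM (SD, n = 2). Poly(A)+ selection acts against mRNA without a tail, so these are shares of the selected RNA and not of histone production. The part of the selection in them was not tested.

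**Figure D3:**
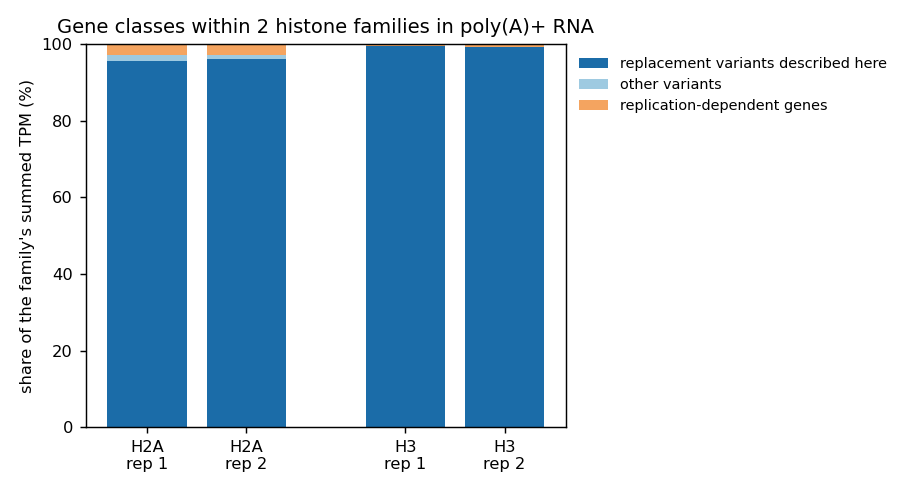
Share (%) of the summed TPM of the matched H2A and H3 genes that came from the variants described here, other variants and replication-dependent genes, 1 bar per library. The variants described here make up 99.3% of H3 and 95.9% of H2A on average.

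The 3′ ends of the reference transcripts were compared for the same reason. A stem-loop of the replication-dependent kind stood after the stop codon of 33 of the 34 matched replication-dependent genes and of 1 of the 9 variants, H2AX. The H2AX site and that of H2BC12, the most abundant replication-dependent gene, are shown with the stem and loop in capitals and 5 bases on each side.
H2AX: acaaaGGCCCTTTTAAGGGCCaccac
H2BC12: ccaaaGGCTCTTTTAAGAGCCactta
In H2AX the stem-loop began at base 50 after the stop codon, and the reference transcript ran on for 1039 bases from there. In H2BC12 it began at base 37 and the transcript ended 20 bases on. A poly(A) signal, AATAAA or ATTAAA, stood in the last 50 bases of 7 of the 9 variant transcripts, H2AX among them, and of 2 of the 34 replication-dependent ones. H2AZ2 and MACROH2A1 were the variants without one in that window. H2AX mRNA is known to end at either site, and poly(A)+ selection favours the polyadenylated form. Replication-dependent genes without a poly(A) signal in that window, H2BC12 among them, were nevertheless detected. Which form of H2AX mRNA gave its 109 ± 13.8 TPM was not tested.

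The RefSeq promoters (GRCh38.p14), from 250 bases before to 50 after each start, gave 13 windows for the 9 genes. On either strand, CCAAT stood in 9 of the 13 windows, against 34.6% of 35116 promoters, and 7 of the 9 genes had at least 1 such window. The single windows of H2AX, H3-3B and H2AZ2 held 4 copies each, and those of H1-10 and MACROH2A2 held 0. H3-3A and MACROH2A1 each gave more than 1 window, and some of those of H3-3A overlapped, so the 13 are not independent. TATAAA stood in 4 of the 13 windows, those of H1-10, H2AX, H2AZ1 and H3-3B, against 11.5% of promoters. GAANNTTC, the paired core of the heat shock element, stood in 1 of the 13 windows, that of H2AZ1, and in 6.77% of promoters. These are matches of letters and show neither binding nor activity.

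The difference between the libraries was then tested for each gene. An exact two-sided binomial test, conditional on the summed count, scaled by edgeR TMM factors and adjusted by the Benjamini-Hochberg method over 19714 genes, compared these 2 libraries and not conditions. At a threshold of 0.05, 43.1% of all genes tested were called. Of the 9 variants, 6 were called, H1-10, H3-3B, MACROH2A1, H2AX, H3-3A and MACROH2A2. All 6 were higher in replicate 1 and 0 in replicate 2, against 22.2% and 20.9% of all genes. Differences were small: the median absolute log2 ratio was 0.13 for the variants and 0.28 for all genes tested. The signed log2 ratios, replicate 2 over replicate 1, had medians of -0.13 for the variants and -0.001 for all genes. For genes whose counts summed to 100 or more, these medians were 0.24 and -0.04. All genes tested include genes with as few as 10 counts, whereas CENPA, the least counted variant, had 418 and 521. The share called among genes of like counts was not measured.

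The largest difference was that of H1-10, with 10013 and 8963 counts and a log2 ratio of -0.46 (adjusted p = 2.4e-106, exact binomial test). H2AX followed with 3035 and 2906 counts and a log2 ratio of -0.37 (adjusted p = 2.1e-21, exact binomial test), and MACROH2A2 with 2308 and 2302 counts and -0.31 (adjusted p = 4.4e-12, exact binomial test). The counts of H2AX and MACROH2A2 are almost level and those of H1-10 were lower in the larger library, and the ratio takes the library size into account. H3-3A had a log2 ratio of -0.16 (adjusted p = 0.0134, exact binomial test), and H3-3A with H3P6 one of -0.13 (adjusted p = 1.3e-07, exact binomial test). MACROH2A1 had 5406 and 6098 counts and a log2 ratio of -0.13 (adjusted p = 7.2e-06, exact binomial test). H3-3B, with 4834 and 5687 counts, had a log2 ratio of -0.07 (adjusted p = 0.0349, exact binomial test), although its TPM was higher in replicate 2. H2AZ1, H2AZ2 and CENPA were not called, with log2 ratios of -0.08, 0.04 and 0.01.

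GC content was set beside these ratios. H1-10 and H2AX had the highest GC content of the 9, 68.6% and 67.0%, and the lowest ratios, and the other 7 lay between 44.5% and 52.0%. Among those 7 the ratios did not follow GC content: H3-3A, with the lowest, was at -0.16, and MACROH2A2 and H3-3B, with 51.9% and 52.0%, were at -0.31 and -0.07. Among genes within 1 percentage point of its GC content, the median log2 ratio was -0.30 for H1-10 and -0.30 for H2AX. The ratio of each of the 9 genes lay between the 5th and 95th percentile of the genes of like GC content. With the GC trend of all genes removed, 4 of the 9 were called, against 26.8% of all genes, 3 of them higher in replicate 1 and 1 in replicate 2, against 13.3% and 13.5%. These were H1-10 at -0.16, H3-3A at -0.26 and MACROH2A2 at -0.17 on the log2 scale, and H3-3B, which turned to 0.07 (adjusted p = 0.0481, exact binomial test). H2AX fell to -0.07 (adjusted p = 0.2, exact binomial test) and MACROH2A1 to -0.05 (adjusted p = 0.185, exact binomial test), and neither was called.

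**Figure D4:**
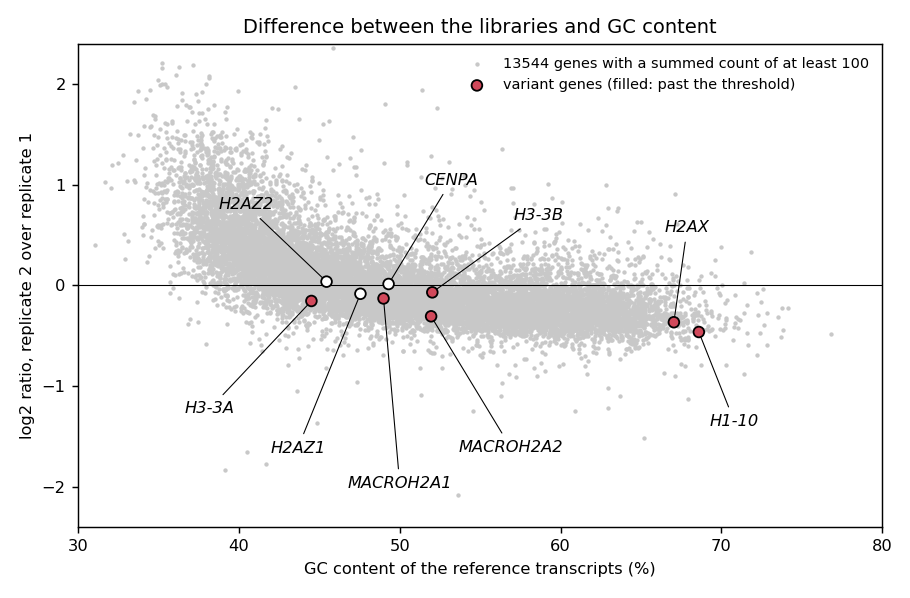
Log2 ratio of replicate 2 over replicate 1 (TMM-scaled) against the GC content of the reference transcripts (%) for the 13544 genes whose counts summed to 100 or more, of which 7 lie outside the axes. The 9 variant genes are circled and filled where called, and H2AX and H1-10 sit at the GC-rich end with the lowest ratios of the 9.

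The binomial test takes the reads as the only source of error. When scaled by library totals it called 4 of the 9, all higher in replicate 1, where 18.0% of all genes were called in that direction and 23.5% in the other. Where an assumed biological coefficient of variation of 0.1 was added, the edgeR exact test called 0 of the 9, against 7.24% of all genes, and 1 had an unadjusted p under 0.05. With the common dispersion of these libraries, a coefficient of variation of 0.200, the edgeR exact test called 0 of the 9, against 0.781% of all genes, and 0 had an unadjusted p under 0.05. The 6 differences thus passed a test against counting error, and none passed either test with added spread. The common dispersion was itself estimated from the differences between these same 2 libraries. That test could therefore call few genes, and it cannot decide whether the 6 differences exceed the spread between replicates.

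The proteins that place, exchange, modify or process histones were examined as 5 lists of 53 genes in all, and all 53 were detected. By the exact binomial test, 36 of the 53 (67.9%) were called, beside the 43.1% of all genes. Of the 36, 20 were higher in replicate 2 and 16 in replicate 1, beside 20.9% and 22.2% of all genes. Scaled by library totals, the split was 24 and 12, beside 23.5% and 18.0% of all genes. The shares of all genes include genes with as few as 10 counts, and shares at like counts were not measured. Over the 53 genes the log2 ratio had a median of -0.007.

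Of 9 genes for H3.3 deposition, 7 were called, beside 43.1% of all genes, with a median of the log2 ratio of 0.22. Of the 7, 4 were higher in replicate 2 and 3 in replicate 1, beside 20.9% and 22.2% of all genes. The highest were DEK, an H3.3 chaperone, NASP, a chaperone of the H3 and H4 supply, and DAXX, which with ATRX deposits H3.3 at repeats. DEK was at 203 and 501 TPM, NASP at 182 and 227 TPM and DAXX at 117 and 108 TPM. The log2 ratio of DEK was 1.20, and 0.57 with the GC trend removed. ATRX had the largest ratio, with 11.0 and 40.8 TPM with a log2 ratio of 1.79 before and 0.98 after removal of the GC trend. ASF1A, a chaperone that hands H3 to the HIRA complex, was the lowest at 7.17 ± 1.05 TPM (SD, n = 2). With the GC trend removed, 5 of the 9 were called, beside 26.8% of all genes, and the median was 0.08. Of those 5, 4 were higher in replicate 2, beside 13.5% of all genes.

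Of 13 genes for H2A.Z exchange, 7 were called, beside 43.1% of all genes, with a median of the log2 ratio of -0.08. Of the 7, 2 were higher in replicate 2 and 5 in replicate 1, beside 20.9% and 22.2% of all genes. The histone chaperone NAP1L1 was at 413 and 518 TPM, the ATPase RUVBL2 at 182 and 144 TPM, and ANP32E, which removes H2A.Z, at 106 and 195 TPM. ANP32E also had the largest ratio of the list, 0.79 on the log2 scale and 0.13 with the GC trend removed. NAP1L1 turned from 0.23 to -0.31 when that trend was removed. Without that trend 11 of the 13 were called, beside 26.8% of all genes, and the median was -0.17. Of the 11, 4 were higher in replicate 2, beside 13.5% of all genes. ACTR6, a subunit of the SRCAP exchange complex, was the lowest at 15.8 ± 1.22 TPM (SD, n = 2).

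Of 9 genes for CENP-A deposition, 5 were called, beside 43.1% of all genes, with a median of the log2 ratio of -0.04. Of the 5, 3 were higher in replicate 2 and 2 in replicate 1, beside 20.9% and 22.2% of all genes. Without the GC trend, 5 were called, beside 26.8% of all genes, and the median turned to 0.03. Of those 5, 2 were higher in replicate 2, beside 13.5% of all genes. RBBP7 was at 367 and 369 TPM, the kinase PLK1 at 277 and 244 TPM and RBBP4 at 168 and 172 TPM. OIP5, a subunit of the Mis18 complex, was the lowest at 4.89 ± 0.877 TPM (SD, n = 2).

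Of 13 genes for H2A.X signalling, 9 were called, beside 43.1% of all genes, with a median of the log2 ratio of 0.14. Of the 9, 8 were higher in replicate 2 and 1 in replicate 1, beside 20.9% and 22.2% of all genes. PRKDC, one of the kinases that phosphorylate H2A.X, was at 188 and 199 TPM, and MDC1, which binds the phosphorylated form, was at 157 and 160 TPM. BAZ1B, which phosphorylates another residue of H2A.X, was at 95.3 and 109 TPM. RAD50 had the largest ratio, with 18.6 and 49.9 TPM and its log2 ratio was 1.31 before and 0.90 after removal of the GC trend. The ubiquitin ligase RNF168 was the lowest at 6.84 ± 1.36 TPM (SD, n = 2). With the GC trend removed, 5 of the 13 were called, beside 26.8% of all genes. Of those 5, 4 were still higher in replicate 2, beside 13.5% of all genes. The median over the 13 was then -0.02, of the opposite sign.

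Of 9 genes for the processing and transcription of replication-dependent histone mRNA, 8 were called, beside 43.1% of all genes. The median of the log2 ratio was -0.11. Of the 8, 3 were higher in replicate 2 and 5 in replicate 1, beside 20.9% and 22.2% of all genes. The scaffold SYMPK was at 106 and 102 TPM, the stem-loop binding protein SLBP at 89.0 and 107 TPM and CPSF2 at 46.2 and 61.9 TPM. CASP8AP2 had the largest ratio, with 11.0 and 32.7 TPM and its log2 ratio was 1.44 before and 0.83 after removal of the GC trend. LSM11, a subunit of the U7 particle, was the lowest at 5.62 ± 0.707 TPM (SD, n = 2). With the GC trend removed, 6 of the 9 were called, beside 26.8% of all genes, and the median was again -0.11. Of those 6, 3 were higher in replicate 2, beside 13.5% of all genes.

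**Figure D5:**
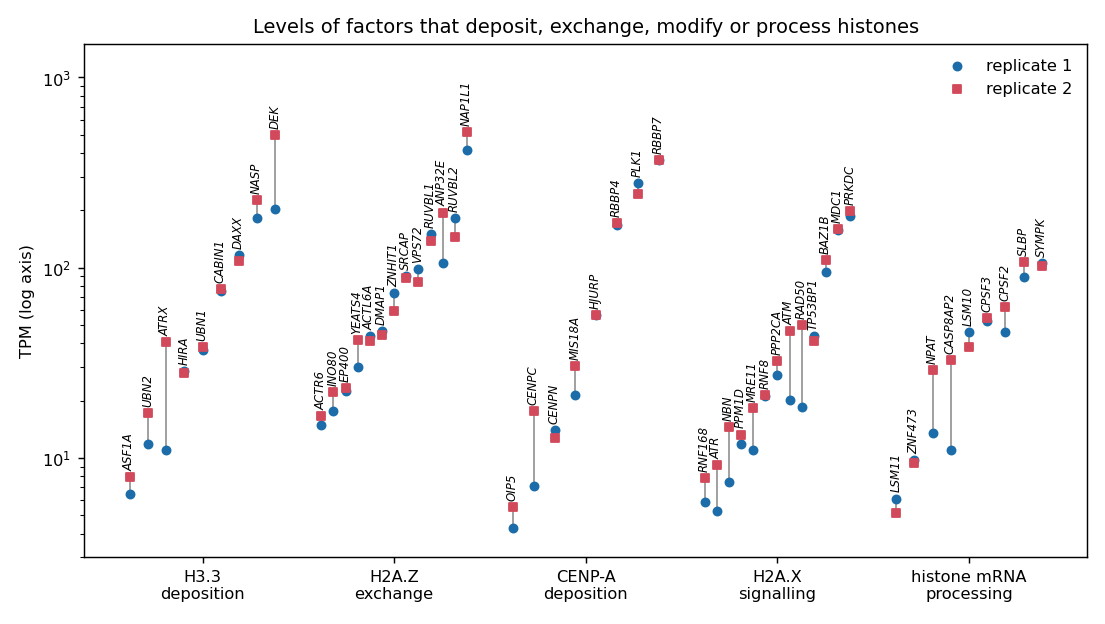
TPM on a log axis of 52 of the 53 genes of the 5 lists in the 2 libraries, ordered by mean within each list, with a line joining the values of a gene. The libraries lie close for genes such as RBBP7 at 367 and 369 TPM and far apart for ATRX, DEK, RAD50 and CASP8AP2, which were higher in replicate 2.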

How the data were processed

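By the labels, both libraries are replicates of 1 group and hold poly(A)+ RNA, although the molecule field reads genomic DNA. The submitters' processing notes name Trimmomatic 0.36, STAR 2.6.1c, RSEM 1.3.1 and GRCh37, and the columns are those that RSEM writes. The authors deposited expected counts, and they were rounded to whole numbers for the tests. The authors also deposited TPM and FPKM values, and posterior means. Their deposited posterior SDs and TPM bounds, read as scores, come without a stated credibility level. A deposited table of both libraries together was not used for any value here. Names and positions came from GENCODE on GRCh37, which matched 96.1% of 57736 identifiers. Python 3.11.15, SciPy 1.17.1, edgeR 4.0.16 and DESeq2 1.42.0 were used.

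Genes whose counts summed to 10 or more were tested, with a pseudocount of 0.5 count in log2 ratios. The GC trend was the median log2 ratio in 50 classes of genes with 100 or more counts, relative to library totals. SDs cover 2 libraries. Some results on the lists and histone families are not reported here. Alternatives covered units, detection thresholds, scaling, filters, pseudocounts, pseudogenes and leaving out each replicate. The 9 genes and the lists were chosen with earlier results of these data known. All 9 genes were named, and of each list the 3 highest, the lowest detected and the called gene of largest ratio with 100 or more counts.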

Additional observations from a re-analysis of the deposited data

How the results depend on the processing

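Detection of all 9 variants and of the 53 list genes (52 at a TPM of at least 5), the order within each pair other than H3.3, and, among the 9 variants, the directions of the called ratios other than that of H3-3B kept under the alternatives run. Ratios of list genes also turned when the GC trend was removed, NAP1L1 among them. Per read (CPM) and not per length, the pair ratios were 1.36 for H2AZ1 over H2AZ2, 3.81 for H3-3B over H3-3A and 2.496 for MACROH2A1 over MACROH2A2, the summed share of the library was 0.135%, and the variants held 97.4% of H2A. The H3 share was 98.9% with posterior mean TPM and 52.9% with histone pseudogenes included. With H3P6 counted together with H3-3A, an alternative chosen after seeing the data, H3-3B over H3-3A reversed to 0.733, the H3 share was 99.6% and the summed share of the library 0.182%. With histone genes also matched through transcript identifiers, likewise added, the H2A share was 94.9% and the H3 share 98.7%. The edgeR exact test at an assumed coefficient of variation of 0.1 called 0 of the 9 and 11 of the 53. It called 7.24% of all genes. With the common dispersion the calls were 0 and 1, beside 0.781% of all genes. In these 2 tests, 15 and 9 of the 53 had an unadjusted p under 0.05. With the GC trend removed, the log2 ratio of H3-3B turned to 0.0703 and that of H2AZ2 to -0.0014. Scaling by library totals ended the calls of H3-3A and H3-3B, testing without a count filter ended that of H3-3B, and a summed count of at least 100 added H2AZ1. CENPA, at 418 and 521 counts, is limited by depth. No paired analysis was possible because there is 1 group and its 2 libraries share no number with another group.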
